A study of Ovis aries with 60 samples.

Results

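The region described here is a 3 Mb block of sheep chromosome 3, from 205.5 Mb to 208.5 Mb of the Oar_rambouillet_v1.0 assembly, in sperm whole-genome bisulfite sequencing. Its members are all cytosines of the block that were listed in the deposited tables, with 10 or more reads in all samples of a generation. In CG context these were 421 of 313527 cytosines in F0 rams, 435 of 294661 in F1 pools and 112 of 122453 in F2 rams. In CHG context 3258, 3181 and 1932 members were listed, and in CHH context 12784, 12337 and 8288, in the same order of generations. The region was chosen by the F0 diet differences of its CG cytosines, which had opposite signs at cytosines close together, so the F0 differences and calls are a description of that choice and nothing is tested with them.

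The F0 contrast was carried by 5 Polypay treatment rams (3T, 5T, 9T, 11T and 23T) and their 5 control twins (4C, 6C, 10C, 12C and 24C). The treatment rams ate the control diet plus rumen-protected methionine (0.22% addition, 1.5 g) from weaning until puberty, and the control rams ate the control diet alone. Each F0 ram was mated to untreated Polypay ewes, and the sperm of its F1 sons was sequenced as 10 pools, each labelled with the number of an F0 sire. The F2 samples were 20 single rams, with 2 rams per F0 sire, born to untreated Polypay ewes, and all F1 and F2 animals ate the control diet, so that F1_treatment and F2_treatment name only the diet of the F0 sire. By the study's methods, a single F1 ram from each F0 sire was used to produce F2, so the 2 F2 rams of an F0 sire share their father. The labels do not say which treatment and control ram were twins, and a pool mixes several sons, so its level is an average over animals.

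A cytosine followed by guanine is the main site of DNA methylation in mammals, and sperm DNA carries the mark at most such sites outside CpG islands. Methylation in CHG and CHH context (H is A, C or T) is rare in sperm. Bisulfite turns unmethylated cytosine into a base read as T, so a methylation level is the share of reads still showing C, and a C-to-T difference between animals is read in the same way as a loss of methylation. These 2 readings cannot be told apart in the deposited counts.

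The block was highly methylated in CG context, as listed CG cytosines were in general. Mean CG levels were 77.4% in the block and 74.2% over all listed CG cytosines in F0. They were 77.1% and 73.8% in F1, and 75.5% and 70.7% in F2. By diet group, the block's mean CG level was 76.7% ± 1.996 in F0 treatment rams and 78.0% ± 1.21 in F0 control rams (SD, n = 5). It was 76.9% ± 0.825 in F1 treatment pools against 77.4% ± 1.68 in F1 control pools (SD, n = 5; exact permutation test, two-sided, p = 0.556). In F2 it was 76.6% ± 2.79 in treatment rams and 74.4% ± 2.90 in control rams (SD, n = 10; permutation test, two-sided, p = 0.0996). Mean CHG and CHH levels of single samples were between 0.338% and 0.658% in all 3 generations, and neither context differed between the diet groups in F1 or F2 (exact or random permutation p from 0.200 to 0.960). Median coverage of the block's CG cytosines in a sample was 17 to 32 reads in F0, 16 to 31 in F1 and 11 to 37 in F2.

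In F0, 28 of the 421 CG members were differentially methylated cytosines (DMCs), defined as a difference of at least 20 percentage points in the methylated share of summed reads and an adjusted p of at most 0.01. That is 6.65% of the members, against 1.82% of all F0 CG cytosines, a gap that the choice of the block used. Methylation was higher in the treatment rams at 11 of them (background 0.77%) and lower at 17 (background 1.05%). Their differences had a median size of 34.1 points, compared with 26.9 points over all F0 CG DMCs. The smallest difference among the 28 was 21.5 points. Of the cytosines outside the call, 5 passed the adjusted p with differences up to 17.9 points, and 4 had at least 20 points with an adjusted p of 0.0102 or more.

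The first 11 DMCs, from position 205791962 to 207015457, were all lower in the treatment rams. The first higher one was at 207017793, and of the 17 from there to 208471338, 11 were higher and 6 lower. Along the whole block the direction changed 8 times in 27 steps between neighbouring DMCs.

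**Figure D1:**
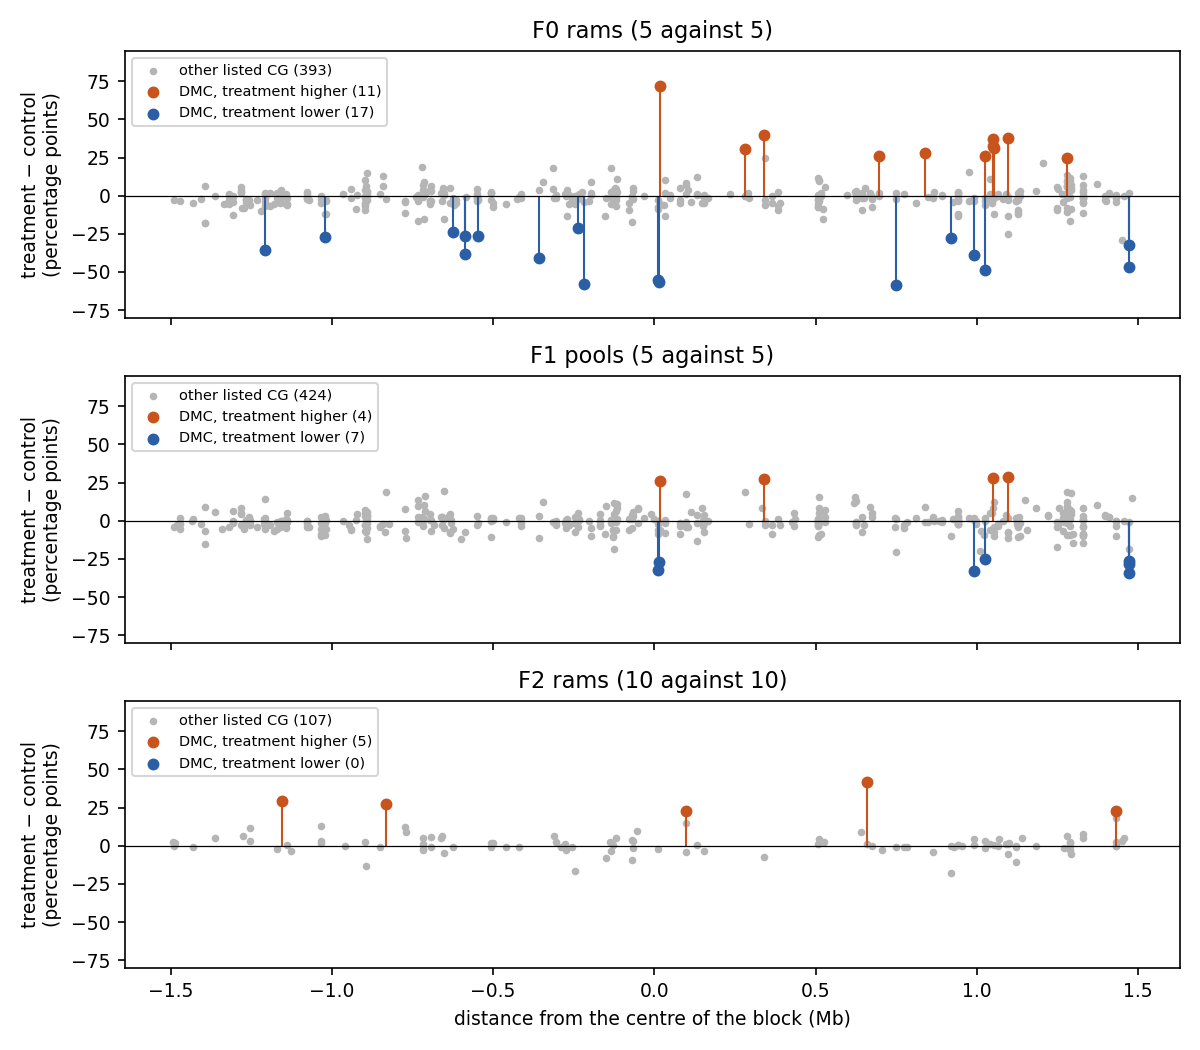
Difference in methylation level (treatment minus control, percentage points of summed reads) of each listed CG cytosine against its distance in Mb from the centre of the block, for F0 rams, F1 pools and F2 rams. Grey points are cytosines not called, and coloured points with stems are DMCs; F0 has 11 higher and 17 lower, F1 has 4 higher and 7 lower, and F2 has 5 higher and 0 lower.

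By the study's own annotation, 15 of the 28 lay in introns, 2 in promoters (within 10 kb upstream of a gene) and 11 between genes. A LINE element held 15 of them, a SINE held 1, and 12 were outside repeats. Such annotation was used here for the block's DMCs alone, so these counts stand without a share over all F0 CG DMCs, and nothing particular to the block is read from them. The introns belonged to C2CD5, ST8SIA1, LOC114113810, PYROXD1, SLCO1A2, LOC101120653 and PDE3A, and the promoters to SPX and SLCO1C1. ST8SIA1 encodes the sialyltransferase that makes the ganglioside GD3, SLCO1A2 and SLCO1C1 encode organic anion transporters, PDE3A is a cyclic nucleotide phosphodiesterase, and SPX encodes the peptide hormone spexin.

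Opposite F0 differences at most 10000 bases apart were found in 3 pairs of CG DMCs, beside 6 pairs of CG DMCs in the same direction. A pair of them shared the CG cytosine at 207017793 (plus strand, an intron of ST8SIA1, within an L1MEd LINE element), which was higher in the treatment rams, while those at 207015457 and 207011620 (minus strand, also in ST8SIA1 introns, outside repeats) were lower. The distances were 2336 and 6173 bases. Among CG DMCs, the closest opposite pair lay in introns of SLCO1A2, at 208024971 and 208025412, which were 441 bases apart on the plus strand. Pairs that join a CG DMC to a CHG or CHH DMC were not counted, and some of them were closer. For example, CG 207749617 (-58.5 points) and CHH 207749545 (51.6 points) were 72 bases apart. Over all distances, 187 pairs of the block's F0 CG DMCs were opposite and 191 had the same direction. Neither nearby opposite pairs nor changes of direction were counted over all F0 CG DMCs.

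At 207017793, the F0 treatment rams read 65.2% in 3T, 93.3% in 5T, 54.2% in 9T, 55.6% in 11T and 82.9% in 23T. All 5 control rams read 0%, with 0 methylated of 106 summed reads, which allows a share of up to 2.83%. The groups did not overlap, with 70.2% ± 17.3 against 0% (SD, n = 5). Of the 421 members, 2 had no overlap between the F0 diet groups, beside a background of 0.575% over all F0 CG cytosines.

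The other one was at 207015457, with the direction turned round. The treatment rams read 44.7% in 3T, 0% in 5T, 9T and 11T, and 4.35% in 23T. The control rams read 58.6% in 4C, 97.2% in 6C, 58.8% in 10C, 52.9% in 12C and 62.1% in 24C. Control ram 12C and treatment ram 3T came closest, and the group means were 9.82% ± 19.6 and 65.9% ± 17.8 (SD, n = 5).

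At 207011620 the treatment rams spread over almost the whole scale, with 50% in 3T and 5T, 0% in 9T and 23T, and 94.4% in 11T. The control rams read from 86.7% in 24C to 100% in 4C, 6C and 12C. The groups overlapped through ram 11T, and the means were 38.9% ± 39.9 and 96.5% ± 5.79 (SD, n = 5). Coverage at these 3 cytosines was between 10 and 38 reads per F0 ram, so a single ram's level is coarse.

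The sons of these rams kept the F0 direction at all 3 ST8SIA1 cytosines, with smaller differences. These cytosines were named for the F0 differences of the same sires, and also as DMCs of both F0 and F1. That choice favours F1 differences in the F0 direction and small p-values. At 207017793 the F1 treatment pools read 18.8% in 3T, 66.7% in 5T, 26.7% in 9T, 35.7% in 11T and 45.8% in 23T, and the control pools 12.5% in 4C, 0% in 6C, 10C and 12C, and 43.3% in 24C. The means were 38.7% ± 18.6 and 11.2% ± 18.8, a difference of 27.6 points (SD, n = 5; exact permutation test, two-sided, p = 0.0476). Leaving out 1 pool at a time gave p from 0.0159 to 0.0952, and p stayed at or under 0.05 for 2 of the 10 pools left out (3T or 24C). The groups overlapped through pool 24C, whose sire had read 0%.

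At 207015457 the treatment pools read 83.3% in 3T, 33.3% in 5T, 9.68% in 9T, 59.1% in 11T and 29.0% in 23T. The control pools read 64.3% in 4C, 75.0% in 6C, 64.7% in 10C, 85.2% in 12C and 41.7% in 24C. The means of 42.9% ± 28.7 and 66.2% ± 16.2 did not differ beyond the spread between pools (n = 5; exact permutation test, two-sided, p = 0.159). Without 1 pool the difference ranged from -33.4 to -15.0 points, with an exact permutation p of 0.0317 without pool 3T and over 0.05 without any other. Pool 3T was the highest treatment pool here, as ram 3T had been among the treatment rams.

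At 207011620 the F1 means were 56.8% ± 21.8 and 88.2% ± 10.97, a difference of -31.4 points (SD, n = 5; exact permutation test, two-sided, p = 0.0317). Without 1 pool p ranged from 0.0159 to 0.0635 and stayed at or under 0.05 in 4 of 10 cases (without 11T, 6C, 12C or 24C). Pool 11T read 93.8% among treatment pools of 38.9% to 58.3%, repeating the place of its sire. None of the 3 ST8SIA1 cytosines was listed in F2, whose list holds cytosines with 10 or more reads in all 20 rams. With 5 pools against 5, the smallest p an exact test can give is 0.00794, and 16 named cytosines were tested in F1 without adjustment over them.

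**Figure D2:**
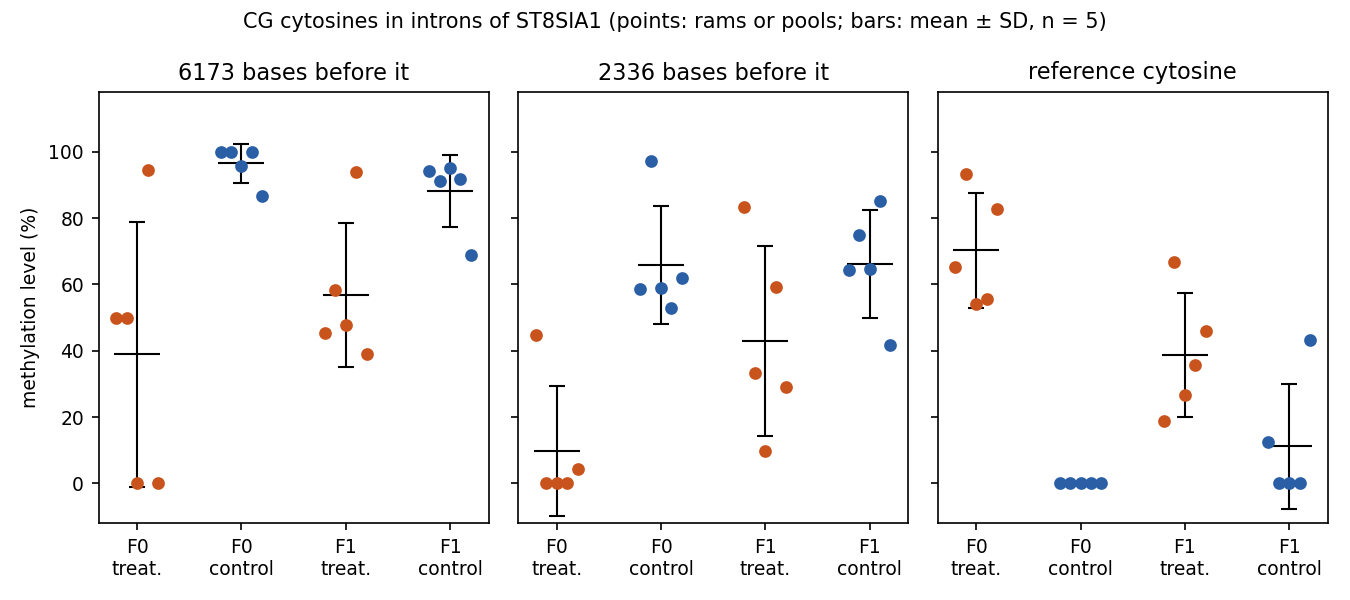
Methylation level (%) of the 3 CG cytosines in introns of ST8SIA1 in F0 rams and F1 pools, with the cytosine at 207017793 as the reference panel and the other panels named by their distance from it. Points are rams or pools and bars show mean ± SD (n = 5); the F0 groups do not overlap in the reference panel and in the one 2336 bases before it, and all F1 groups overlap.

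At the SLCO1A2 pair, treatment rams 5T, 9T and 23T were above control rams 4C, 6C, 10C and 12C at the first cytosine and below them at the second. At 208024971 the F0 treatment rams read 62.5%, 49.0%, 45.8%, 0% and 44.4% (3T, 5T, 9T, 11T and 23T), and the control rams 0% except for 24C at 50%. At 208025412 the same treatment rams read 88.0%, 35.7%, 34.8%, 0% and 43.8%, and the control rams 87.5%, 100%, 50%, 100% and 81.2% (4C, 6C, 10C, 12C and 24C). Rams 3T, 11T and 24C broke this order, with 3T and 24C at or over 50% for both cytosines and 11T at 0% for both, and Pearson's r over the 10 rams was -0.10. It was -0.83 between 207015457 and 207017793 and -0.75 between 207011620 and 207017793. In F1, the difference at 208024971 was 1.14 points (exact permutation p = 0.944, n = 5) and that at 208025412 was -25.6 points (exact permutation p = 0.119, n = 5). By the likelihood-ratio test on summed reads 208025412 was a DMC in F1 and 208024971 was not.

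The levels of the variable members were spread over the whole scale. Among the 79 F0 CG members whose rams spanned at least 50 points (18.8% of members, beside 17% of all F0 CG cytosines), 15.2% of levels were at most 10%, 32.7% lay from 35% to 65%, and 28.6% were at least 90%. Over all autosomes the shares were 14.3%, 34.3% and 23.95%. Levels between those ranges made up 23.5% in the block and 27.5% over the autosomes. In the F1 pools, which mix animals, the shares in the 64 variable members (14.7% of members, beside 11.9% of all) were 5.31%, 38.4% and 14.8%, and 41.4% of levels lay between those ranges. The autosomal shares in F1 were 6.83%, 35.1%, 12.2% and 45.9%. In the 38 variable members of F2 (33.9% of members, beside 38% of all), again single rams, 16.7% of levels were at most 10%, 25.8% lay from 35% to 65%, 26.1% were at least 90%, and 31.4% lay between those ranges. The autosomal shares in F2 were 11.5%, 30.7%, 27.2% and 30.6%. The part of sequence differences between rams in them was not tested.

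Among the 28 F0 CG DMCs, the levels of a ram at one cytosine went with its levels at others far away. Of the 187 pairs with opposite F0 differences, 168 had a negative r over the 10 rams, and of the 191 pairs with the same direction, 178 had a positive r. These signs follow in large part from the choice of DMCs, since all of them share the split between the same 2 groups of rams. Single pairs reached r of -0.98 (206375096 and 207839609, the latter in the SPX promoter, 1464513 bases apart), -0.93 (207011620 in ST8SIA1 and 208095547 in LOC101120653) and 0.93 (206642760 and 207011620). The SLCO1A2 cytosines at 208049038, 208050207 and 208052489 moved together, with r between 0.94 and 0.96 over distances of 1169 to 3451 bases. These pairs were singled out after their values were seen.

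**Figure D3:**
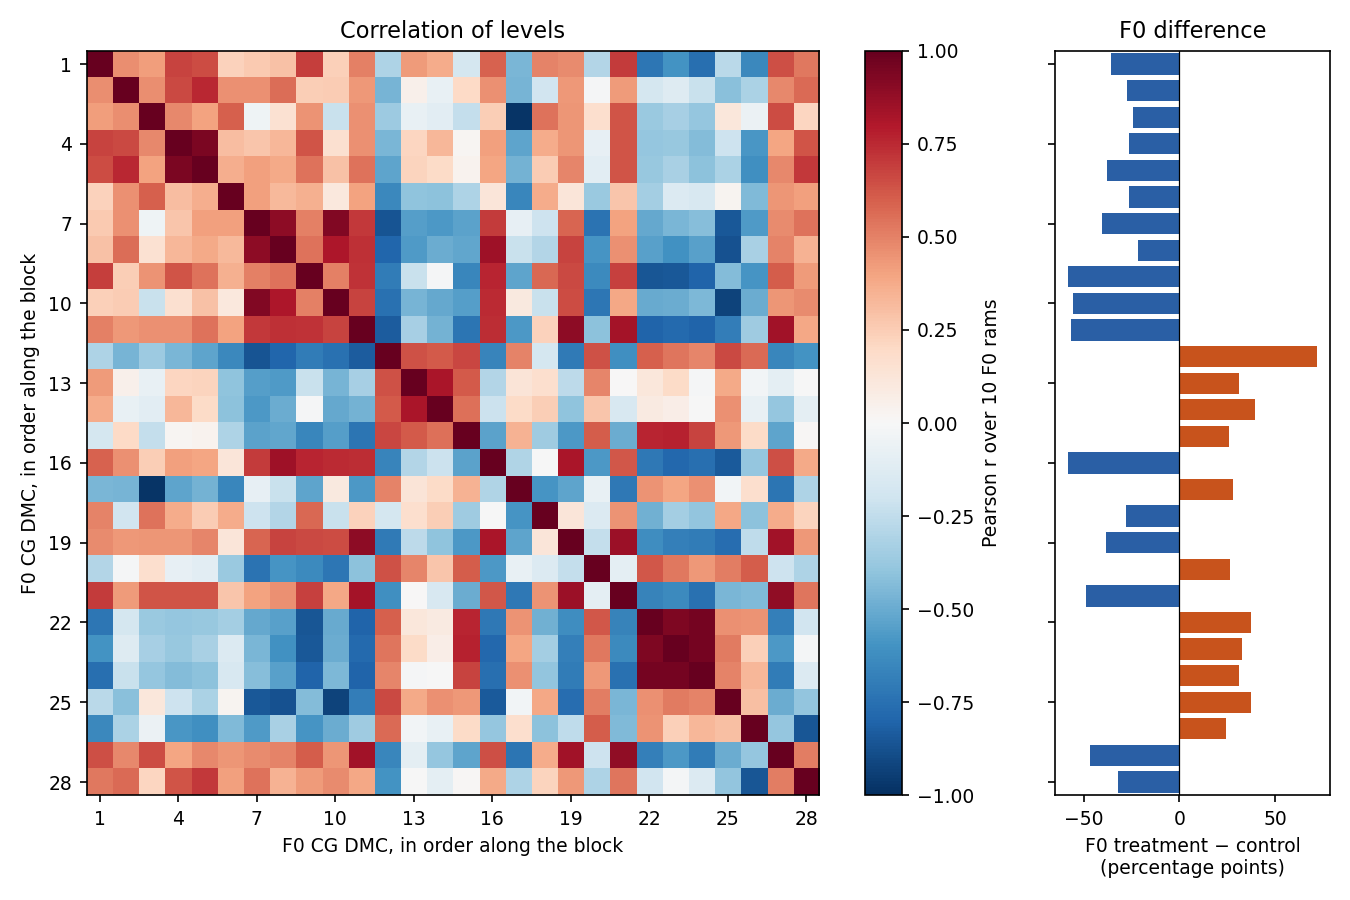
Pearson's r over the 10 F0 rams between the levels of all pairs of the 28 F0 CG DMCs, numbered in order along the block, beside each DMC's F0 difference (treatment minus control, percentage points). The first 11 differences are negative, the 12th is the largest positive one, and blocks of red and blue follow the direction of the differences, with 16 pairs at r of 0.8 or more and 11 at -0.8 or less.

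Over all variable CG members, and not only DMCs, the correlation was lower at long than at short distances, and the block was below the autosomes at most distances but not at all of them. In F0 the median size of r was 0.52 over 16 pairs up to 1000 bases apart, 0.49 over 25 pairs from 1001 to 10000 bases, 0.31 over 179 pairs from 10001 to 100000 bases, and 0.28 over 1344 pairs beyond 1000000 bases. The autosomal medians for the same distances were 0.63, 0.48, 0.37 and 0.32. At 10001 to 100000 bases 3.35% of the block's pairs had a size of r of at least 0.8, against 8.47% of autosomal pairs. In F1 the share was 1.54% of 130 pairs, against 6.43%, and in F2 5.41% of 37 pairs, against 5.55%. In F2 at short distances the shares were 11.1% of 9 block pairs against 63.8% up to 1000 bases and 0% of 5 against 55.7% from 1001 to 10000 bases, and by Spearman's rho 11.1% against 10.5% and 0% against 5.15%. The block was above the autosomes in F0 at 1001 to 10000 bases, with 20% against 18.6% of pairs, and in F2 beyond 1000000 bases, with 3.88% of 309 pairs (exact binomial 95% interval 2.02% to 6.69%) against 1.89%. By Spearman's rho the shares beyond 1000000 bases in F2 were 0.32% and 0.27%. The rams include twins, the pools are their sons, and pairs share cytosines, so these values are descriptions.

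**Figure D4:**
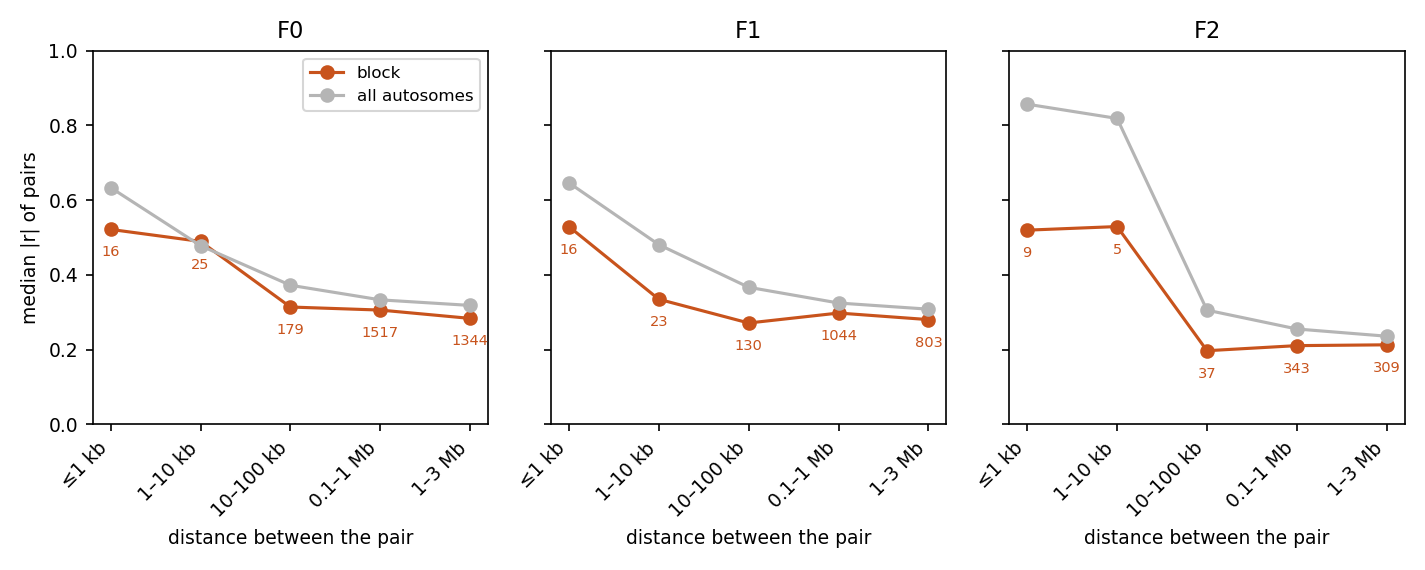
Median size of Pearson's r between levels of variable CG cytosines (range of at least 50 points over samples) by the distance of the pair, in F0 (10 rams), F1 (10 pools) and F2 (20 rams), for the block and for all autosomes, with the number of block pairs printed at each point. The block lies at or below the autosomes at nearly every distance in F0 and at all distances in F1 and F2.

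In F1, 11 of 435 CG members were DMCs (2.53%, background 1.0%), 4 higher (background 0.458%) and 7 lower (background 0.542%) in the treatment pools, by the likelihood-ratio test on summed reads with Benjamini-Hochberg adjustment over all F1 CG cytosines. Of these, 9 were also F0 DMCs, all with the F0 direction, which is 32.1% of the F0 and 81.8% of the F1 DMCs of the block. The block was chosen for its F0 differences, a choice that favours these shares, so nothing is read from them. Over the whole tables, 861 CG cytosines were DMCs in both generations, or 15.1% of the F0 and 29.2% of the F1 DMCs. The 9 were the 3 ST8SIA1 cytosines, 207340438 in LOC114113810, 207990018 between genes, 208025412 and 208049038 in SLCO1A2, 208095547 in LOC101120653, and 208470963 in PDE3A. The other 2, at 208470979 and 208471057 in PDE3A, were listed in F1 but not in F0 and lay 16 and 94 bases beyond 208470963. By limma on the levels, which takes the ram or pool as the unit, no CG cytosine passed the same thresholds in any generation, in the block or elsewhere. At an unadjusted p under 0.05 and 20 points, limma listed 8 F1 members (1.84%, background 0.834%) and 4 F2 members (3.57%, background 1.05%). In F0, whose values chose the block, it listed 17 members (background 0.588%). The pools are sons of these F0 rams, so the choice favours the F1 shares as well, also that of the likelihood-ratio test. For F2, limma took each ram as separate, though the 2 F2 rams of an F0 sire share a father. Nothing is read from these shares. No CHG or CHH member was called in F1 (0 of 3181, background 0.00605%, and 0 of 12337, background 0.00535%).

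Of the 28 F0 CG DMCs, 24 were listed in F1 and 22 of them had the F0 direction (91.7%, against 88.4% of all F0 CG DMCs listed in F1). Their median F0 size was 34.1 points and their median F1 difference in the F0 direction 18.6 points. The median ratio of the F1 to the F0 difference was 0.38 in the block and 0.44 over all F0 CG DMCs. The exceptions were 205791962, which went from -35.6 to 14.2 points, and 208024971 in SLCO1A2, which went from 26.3 to -0.37 points. The F1 test reads sons of the same F0 rams, so a repeat of the F0 direction there is not a second sample of the diet.

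The largest negative F1 differences of summed reads among the DMCs were -33.99 points at 208471057 in PDE3A and -33.0 points at 207990018, between genes in an L1_Art LINE element. Both were named for these differences, so their F1 levels are given without a test. At 208471057, not listed in F0, the F1 means were 56.9% ± 23.9 and 86.7% ± 23.1 (SD, n = 5). At 207990018 the F0 treatment rams had read 100% in 3T and 45.7% to 61.9% in the other 4, and the control rams 90.6% to 96.7%. The F1 treatment pools read there 88.9% in 3T and 42.2% to 55.0% in the other 4, and the control pools 72.0% to 96.3%. The means were 56.2% ± 18.8 and 85.5% ± 12.2 (SD, n = 5), and the groups overlapped through pool 3T.

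The next 4 were named in part or wholly because they were F1 DMCs, a choice that favours a small p. Among them, 208095547 and 208049038 were also named for the largest positive F1 differences, so their p is a description only. At 207340438 the F1 means were 81.2% ± 14.1 and 46.4% ± 33.0 (exact permutation p = 0.0635, n = 5), and at 208095547 they were 33.4% ± 24.3 and 7.41% ± 10.5 (exact permutation p = 0.0952, n = 5). At 208049038 they were 74.3% ± 21.99 and 50.4% ± 28.8 (exact permutation p = 0.175, n = 5), and at 208470963 66.6% ± 24.7 and 87.0% ± 18.1 (exact permutation p = 0.198, n = 5). These 4 did not differ beyond the spread between pools, and neither did 207749617 (-16.3 points, exact permutation p = 0.437, n = 5), a BovB LINE cytosine with one of the largest F0 differences. Single pools decided 2 of these values, since the exact permutation p was 0.0159 at 207340438 without pool 4C and 0.0317 at 208095547 without pool 11T.

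The F1 groups were fully apart at 3 CG members, which 0.67% of all F1 CG cytosines also were, and none of the 3 was a DMC. They were 207643465 and 208052194, with differences of -7.32 and -7.38 points, and 208291070, where the treatment pools read 46.7% to 71.9% and the control pools 35.7% to 44.0%. These were named after their values were seen.

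Sires and their pools were alike at the variable members. At the 59 CG members with a range of at least 50 points in F0 that were also listed in F1, the median r over the 10 sire numbers between ram and pool was 0.69, and r was positive at all 59. Over all autosomes the median was 0.61 at 36534 cytosines, and 94.3% were positive. A pool's level differed from that of its own sire by a median of 14.97 points, and from those of the other sires of the same diet by 26.3 points (16.2 and 24.7 points over all autosomes). With each value taken as a deviation from its diet group's mean, the median r was 0.71 in the block, so that pool followed sire within the diet groups as well.

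**Figure D5:**
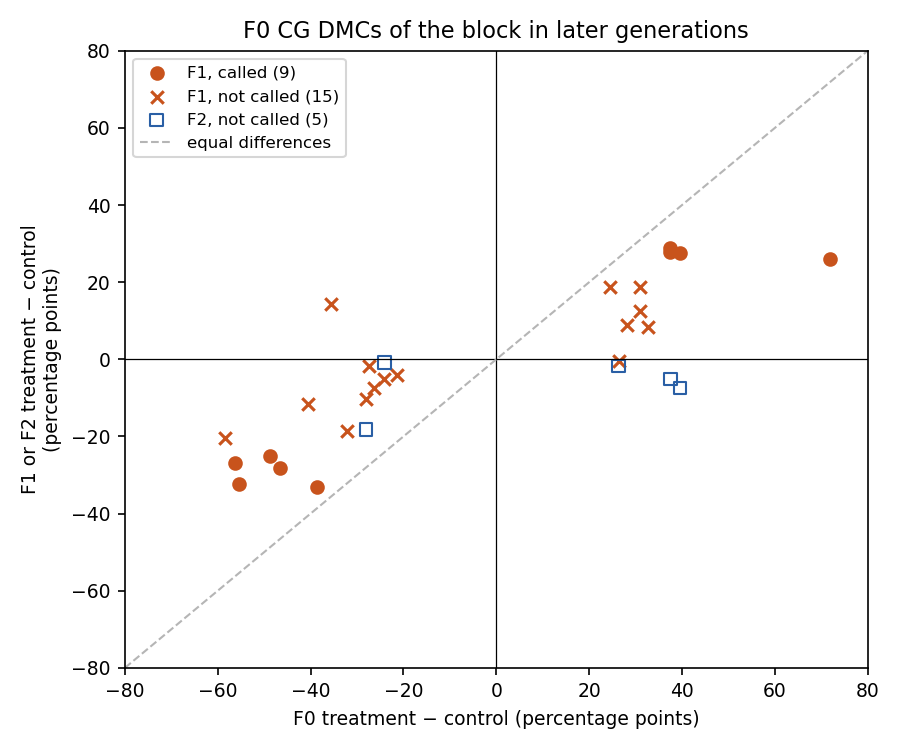
Difference in level in F1 pools or F2 rams (treatment minus control, percentage points of summed reads) against the F0 difference, for the F0 CG DMCs of the block that were listed later. Of the 24 listed in F1, 22 have the F0 sign and all but the 9 called ones are marked by crosses, and the 5 listed in F2 lie between -18.2 and -0.78 points on the vertical axis.

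Little of the F0 pattern could be followed to F2, where 5 of the 28 F0 CG DMCs were listed. Their F2 differences were -0.78 points at 206375096, -7.45 at 207340438, -18.2 at 207919262 in a PYROXD1 intron, -1.71 at 208024971 and -5.09 at 208095547. The F0 direction held at 2 of the 5 (206375096 and 207919262), against 65.7% of the 1555 F0 CG DMCs listed in F2 over the whole tables. None was called, although 207919262 passed the adjusted p (4.5e-06, likelihood-ratio test on summed reads) and missed the 20 points. No cytosine of the block, in any context, was a DMC in both F0 and F2 or in both F1 and F2, with 5 F0 and 2 F1 CG DMCs of the block listed in F2. Over the whole tables, 20.6% of the F0 CG DMCs and 26.3% of the F1 CG DMCs that were listed in F2 were called there, and with so few listed the block could not be told from the whole tables.

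At 208095547 the F2 treatment rams ranged from 0% to 38.0% with a median of 0%, and the control rams from 0% to 54.1% with a median of 0%. The F2 difference of -6.22 points (n = 10; permutation test, two-sided, 100000 resamples, p = 0.368) followed differences of 43.2 points in F0 rams and 25.99 points in F1 pools. The F1 difference exceeded the F2 difference by 32.2 points (permutation of diet labels within generations, two-sided, p = 0.0364, the smallest of 4 such tests and not adjusted for them). The F1 pools and the F2 rams share their F0 sires, and with the pool minus the mean of the 2 F2 rams of each sire as the unit, 5 against 5, the exact permutation p was 0.0556. The cytosine was also named for its F1 difference, so a larger difference in F1 than in F2 was favoured by the choice. At 207340438 the F2 means were 61.7% ± 30.8 and 62.0% ± 30.9 (SD, n = 10; permutation p = 0.979), and the F1 difference exceeded the F2 one by 35.1 points (permutation p = 0.136, and exact permutation p = 0.135 over sires). At 208024971 the F2 difference was 1.41 points (n = 10; permutation p = 0.886).

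The F2 DMCs of the block were other cytosines. They were 5 of 112 CG members (4.46%, background 2.19%), all higher in the treatment rams (background of higher calls 1.1%), at 205844493, 206166653, 207097383, 207659350 and 208430952. Only 206166653 and 207097383 were listed in F0 and F1, with F0 differences of -2.29 and 8.46 points and F1 differences of 18.5 and 17.7 points, none of them called.

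The 2 largest F2 differences among the block's CG DMCs are described without a test, since the F2 levels chose them. The largest was at 207659350. The treatment rams read from 64.0% to 100% with a median of 100%, and the control rams from 0% to 100% with a median of 43.2%. The treatment rams were nearly uniform while the control rams covered the whole scale, and the groups overlapped. The means were 95.04% ± 11.3 and 50.4% ± 36.6, a difference of 44.6 points (SD, n = 10). At 205844493 the means were 77.3% ± 23.4 and 44.7% ± 36.7 (SD, n = 10).

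Between sire and grandsons the likeness was weaker. The median r over the 10 sire numbers between the F0 ram and the mean of its 2 F2 grandsons was 0.24 at the 8 variable members listed in both, against 0.28 at 12006 autosomal cytosines. Between pool and F2 rams it was 0.50 at 9 members, against 0.42 over the autosomes. With so few members, the block and the autosomes could not be ranked.

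Outside CG context, the block held 4 F0 DMCs in CHG (2 higher and 2 lower, 0.123% of 3258, background 0.0142%) and 12 in CHH (8 higher and 4 lower, 0.0939% of 12784, background 0.0145%). Their median sizes were 31.2 and 30.6 points, below the 34.1 points of the CG DMCs. They come from the contrast that chose the block, so nothing is read from these shares. At the CHG cytosine 206864725 the F0 groups did not overlap, as 1 of 3258 members beside a background of 0.00335%. The treatment rams read 36.4% to 43.6% and the control rams 0%, 2.5%, 0%, 3.33% and 35.1% (4C, 6C, 10C, 12C and 24C). In F1 its means were 34.0% ± 11.7 and 24.7% ± 23.5 (exact permutation p = 0.413, n = 5).

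The CHG member with the most negative F0 difference was 208042776, with 7.83% ± 17.5 in treatment and 48.9% ± 37.9 in control rams, followed in F1 by a difference of -5.70 points (exact permutation p = 0.706, n = 5). The CHH cytosine 207749545 had 59.7% ± 39.5 against 9.70% ± 19.1 in F0, while the block's mean CHH level in F0 was 0.39%. It lay 72 bases from the CG cytosine 207749617, where the F0 group means differed by -50.6 points. Treatment rams 5T, 9T and 23T read 83.3%, 92.0% and 84.6% at the CHH cytosine and 0% at the CG cytosine. Ram 3T read 0% and 100% there, and 11T 38.5% and 53.6%. The part of sequence differences between rams in such CHG and CHH levels was not tested. The F1 difference at CHH 207749545 was 15.2 points (exact permutation p = 0.397, n = 5) and its F2 difference 4.81 points (n = 10; permutation p = 0.724). By summed reads the F2 difference there was 12.8 points, which was not called. The CHH cytosine 208066415 read 27.9% ± 26.5 against 65.7% ± 19.3 in F0 and differed by -0.73 points in F1 (exact permutation p = 0.968, n = 5).

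All 4 CHG and 10 of the 12 CHH DMCs of F0 were listed in F1, where 4 and 8 kept the direction, with medians of 12.9 and 3.48 points in the F0 direction and none called. Of these F0 DMCs, 2 CHG and 2 CHH were listed in F2, where 0 and 2 kept the direction. Their F2 medians in the F0 direction were -3.85 and 12.7 points, and none was called. In F2, 1 CHG member (206367494, with a difference of -26.8 points, of 1932, background 0.0306%) and 2 CHH members were DMCs (205830321, with 32.3 points, and 206343133, with -27.4 points, of 8288, background 0.0266%).

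Expression was measured in the F2 rams alone, by RNA sequencing of the same semen samples, with 805831 to 13137757 counts per ram. A list of 14 genes was set for the region without a gene annotation of this assembly. Of these, the study's annotation of the block's DMCs names only C2CD5, ST8SIA1, SPX and PYROXD1, and the place of the others was not checked. Of the 14 (SOX5, ETNK1, C2CD5, ST8SIA1, CMAS, ABCC9, KCNJ8, LDHB, GOLT1B, SPX, GYS2, RECQL, PYROXD1 and IAPP), 13 had a row in the table, and 9 passed the filter of 15 counts in more than 10 rams. None differed between the F2 groups by edgeR's quasi-likelihood test or by DESeq2, and none had an unadjusted p under 0.05. Over all 13577 genes tested, 0 were called (background 0%), with 104 at an unadjusted p under 0.05. That is fewer than a threshold of 0.05 gives when no gene changes, and the reason for this shortfall was not tested. The absence of calls does not show that expression was unchanged. The median log2 fold change (treatment over control) was -0.15 for the 9 genes and -0.05 for all genes.

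ETNK1, an ethanolamine kinase of phospholipid synthesis, had 122 ± 94.3 CPM (counts scaled to a common library size) in treatment and 174 ± 230 in control rams (SD, n = 10). C2CD5, a C2 domain protein of insulin-driven vesicle traffic, had 44.1 ± 24.8 and 51.8 ± 50.4, with a log2 fold change of -0.23 ± 0.47 (SE; adjusted p = 1.00 by edgeR). RECQL, a DNA helicase, had 29.2 ± 18.4 and 30.1 ± 19.7, and the transcription factor gene SOX5 had 28.4 ± 23.6 and 26.1 ± 18.4. ST8SIA1 had 3.85 ± 1.73 and 3.76 ± 1.63 CPM and fell short of the filter, with 15 counts in 9 rams. PDE3A, SLCO1A2, SLCO1C1, LOC101120653 and LOC114113810 were added after the cytosines were seen, as their hosts. PDE3A had 16.6 ± 6.57 and 19.7 ± 8.48 CPM, LOC114113810 3.94 ± 3.02 and 4.80 ± 3.06, and neither of these 2 that passed the filter was called. SLCO1A2 had 2.07 ± 1.73 and 2.75 ± 1.08 CPM, and LOC101120653 3.96 ± 2.19 and 4.02 ± 2.09.

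Leukocyte markers were abundant in the RNA of most rams, although the study lysed somatic cells before it extracted RNA. The summed CPM of 8 leukocyte markers ranged from 175 to 26884 in treatment and from 101 to 56755 in control rams, and that of 10 sperm markers from 178 to 4651 and from 89.8 to 4965. Leukocyte markers exceeded sperm markers in 8 of 10 treatment and 9 of 10 control rams, and the 3 of 6 squamous epithelium markers with a row reached from 48.9 to 9598 and from 30.8 to 21193. No marker was at 0 in all rams and none was called between the groups. Such sums depend on the abundance of single marker genes and do not measure the share of a cell type in the RNA. Their part in the gene values was not tested, and fewer sperm and less RNA per sperm cannot be told apart. Before DNA extraction from semen, the study describes no lysis of somatic cells. The part of somatic DNA in the methylation levels was not tested.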

How the data were processed

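The deposited methylation tables give, per cytosine and sample, read counts that the authors made with Bismark on Oar_rambouillet_v1.0 after deduplication, and methylKit, keeping cytosines with at least 10 reads in all samples. The deposited RNA values are raw gene counts from STAR. A level is methylated over covering reads. The 120 columns of unmethylated reads were not used. DMCs came from a likelihood-ratio test of a logistic model on summed reads with Benjamini-Hochberg adjustment over each whole table, and single cytosines in F1 and F2 from permutation tests on levels. This likelihood-ratio test takes reads, not animals, as the unit. It was tested on simulated reads that had no spread between animals, a check that says nothing about its calls where animals differ. Limma and edgeR were tested on simulated data too. Tools were Python 3.11.15, scipy 1.17.1, edgeR 4.0.16, DESeq2 1.42.0 and limma 3.58.1. Expression used TMM scaling and a quasi-likelihood test at an adjusted p of 0.05.

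Named cytosines were F0 CG DMCs without overlap, opposite pairs of F0 CG DMCs within 10000 bases, and the 4 largest F0 CG differences per direction. Further ones were up to 8 DMCs of F0 and F1, the 2 largest F1 and F2 CG DMCs per direction, and the largest CHG and CHH differences of F0. Named genes held a named cytosine or were the 4 of highest expression. Annotations of cytosines are those of the study, used for names only. The list of genes tested for expression was set without an annotation of this assembly. The members, lists and tests were chosen with earlier results of these data known. No sequence is printed, since a genome of this assembly was not used here. Nothing says that samples of a group share no technical source beyond being separate animals or pools. The p-values of the permutation tests, limma, edgeR and DESeq2 measure the spread between these samples. Those of the likelihood-ratio test on summed reads do not. In F2, the permutation tests on rams, limma, edgeR and DESeq2 took the 2 rams of an F0 sire as separate, although they share a father. Intervals and limits cover counting error only. Alternatives were a 25-point difference, a minimum of 15 reads, limma on levels, leaving out each F0 or F1 sample, other cuts of the correlations (a range of 30 points, deviations from group means, Spearman), F2 sire means, the F1 minus F2 difference over F0 sires (added after seeing the data), DESeq2 and no expression filter.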

Additional observations from a re-analysis of the deposited data

Results flagged for a closer look

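Single samples stood far from the other members of their group at named cytosines of the block, by Dixon's test at the 95% level, in 16 of the 74 groups tested. Chance gives such a sample in about 1 of 20 groups where levels follow a normal distribution. That rate does not apply here and the count is not set against it, since F0 levels chose the cytosines and the levels of many groups lie at one end of the scale. In the F0 control rams at 208024971 and the F0 treatment rams at 208042776, for example, the other 4 rams were all at 0%. The samples below are a description. Control ram 24C stood apart in F0 at CHG 206864725 (35.1%), CHH 207749545 (43.8%), CG 207749617 (33.3%) and CG 208024971 (50%), each time on the side of the treatment rams. Its pool 24C stood apart in F1 at CG 207011620 (68.8%) and CG 207017793 (43.3%), again toward the treatment pools.

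Treatment ram 3T stood apart at CG 207015457 (44.7%) and CHG 208042776 (39.1%), and pool 3T at CG 207990018 (88.9%), each toward the control side. Treatment ram 11T stood apart at CG 208024971 (0%). Control ram 6C stood apart at CG 207015457 (97.2%) and CHH 208066415 (100%), away from the treatment rams, and pool 10C at CG 208471057 (46.7%). In F2, 1 of the 2 grandsons of 23T stood apart at CG 207659350 (64.0%), CHH 207749545 (98.3%) and CG 208095547 (38.0%).

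At CG 208095547 the diet difference was 25.99 points in the F1 pools and -6.22 points in the F2 rams, a gap of 32.2 points (permutation p = 0.0364 with labels permuted within generations, 1 of 4 such tests, not adjusted). Over the F0 sires that pools and F2 rams share, 5 against 5, the exact permutation p was 0.0556, and the cytosine was named in part for its F1 difference. The 3 F0 treatment rams above 0% there were 5T, 9T and 23T.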

How the results depend on the processing

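With at least 15 reads in every sample, the block's DMCs fell to 12 in F0 CG, 7 in F0 CHH, 2 in F1 CG, and 0 in F2 CG, F2 CHG and F2 CHH, from 28, 12, 11, 5, 1 and 2. That filter left 194 of 421 F0, 182 of 435 F1 and 12 of 112 F2 CG members, so fewer cytosines were tested. At 25 points the F2 CG count was 3. Limma on levels, which takes the animal or pool as the unit, called 0 CG cytosines in F0, F1 and F2, in the block and in the whole tables. Leaving out 1 sample gave 24 to 33 F0 CG, 3 to 5 F0 CHG, 7 to 15 F0 CHH, 8 to 13 F1 CG, 0 to 1 F1 CHG and 0 to 3 F1 CHH DMCs. The lowest F0 CHH count was without treatment ram 5T, the F1 CHG calls came without pool 6C or pool 24C, and the 3 F1 CHH calls came without pool 24C. The share of pairs 10001 to 100000 bases apart with a size of r of at least 0.8 depended on the settings. With a range of 30 points it was 1.73% in F0, 0.54% in F1 and 2.70% in F2, from 3.35%, 1.54% and 5.41%, and the autosomal shares moved to 2.93%, 1.76% and 3.34%, from 8.47%, 6.43% and 5.55%. With deviations from group means it was 2.23%, 0.77% and 5.41% (autosomes 9.38%, 7.37% and 6.13%), and by Spearman 2.79%, 1.54% and 0% (autosomes 5.23%, 5.28% and 1.16%).

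Without 1 pool the F1 difference ranged from -37.4 to -25.7 points at 207990018, -39.8 to -22.4 at 208471057, 26.5 to 46.8 at 207340438, 18.4 to 34.3 at 208095547, 14.8 to 33.4 at 208049038, -28.1 to -11.8 at 208470963, -29.5 to -7.21 at 207749617, 5.32 to 27.1 at CHH 207749545 and 3.17 to 15.3 at CHG 206864725. The difference at 207011620 ranged from -40.6 to -26.9 points (exact permutation p from 0.0159 to 0.0635) and that at 207017793 from 20.6 to 35.6 points (exact permutation p from 0.0159 to 0.0952), with 0.0159 the smallest p that 4 pools against 5 allow, and 0.00794 the smallest for 5 against 5. The sign turned at 208024971 (-5.46 to 8.61 points without 1 pool, and -0.37 in F1 and -1.71 in F2 by summed reads), CHG 208042776 (-13.7 to 2.12) and CHH 208066415 (-7.73 to 7.31), where no difference was called. The F1 minus F2 difference at 208095547 passed p = 0.05 with labels permuted within generations (0.0364) and not over F0 sires (exact permutation p = 0.0556), an alternative chosen after seeing the data. No paired analysis was run, since the labels do not name the twin pairs and give the treatment and control rams different numbers. The p-values given here therefore ignore the pairing of twins. Whether consecutive numbers such as 3T and 4C mark twins is not given in the sources used here.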
